A study of Homo sapiens with 18 samples.

Results

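The DNAJ family, also called HSP40, consists of the co-chaperones that carry a J domain. Its members were taken here as the transcript clusters of a human gene array (1 cluster is the summary of all probes to 1 transcribed locus) whose only gene symbols begin with DNAJA, DNAJB or DNAJC and end in a number. This gave 44 clusters for 42 genes, of 21214 clusters with a symbol and 33297 in all, with 4 in class A, 14 in class B and 26 in class C. DNAJB6 and DNAJC19 each had 2 clusters under 1 symbol. Within each pair a cluster may read a related copy of the gene, which was not tested, so a pair is not 2 readings of a gene for certain. Another 6 clusters with DNAJ names fell outside the rule, because they were a pseudogene (DNAJA1P5), carried a further letter (DNAJC5B, DNAJC5G), or were shared with another symbol (DNAJB14 with LOC646358 and a pair of DNAJC25-GNG10 clusters).

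The levels came from HEK293 cells, an established line of human embryonic kidney origin, transiently transfected with plasmids from a commercial supplier. The groups were RHOXF2 vector, RHOXF1 vector and control vector, each at 48 h and at 24 h after transfection, with 3 arrays a group and 18 arrays in all. RHOXF1 and RHOXF2 are human homeobox genes of the reproductive homeobox cluster on the X chromosome. The control is named as an empty vector in 1 label and as a GFP plasmid (pCMV6-AC-GFP) in the treatment text. All groups, controls included, received a DNA and lipid (Lipofectamine) complex, so the comparisons with control are between cells that were all transfected. The series text calls the replicates biological triplicates. The share of cells that took up a plasmid is not given in the sources used here, and in RNA of a whole well a change in a few cells and a smaller change in all cells cannot be told apart.

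J domains stimulate the ATPase of HSP70 proteins, so that HSP70 closes on a client protein, and the rest of each DNAJ protein sets where in the cell this takes place and on which client. Class A and B proteins mostly bind unfolded clients themselves, whereas class C proteins share little beyond the J domain and serve at fixed sites such as the mitochondrial import channel, the endoplasmic reticulum, clathrin-coated vesicles, the ribosome and the spliceosome. Some members are constitutive. Others, with DNAJB1 as the best known, are heat shock genes whose promoters are bound by the transcription factor HSF1 at arrays of the short unit GAA or its complement TTC. A further set in the endoplasmic reticulum belongs to the unfolded protein response.

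The labels were checked on the transfected genes first. The cluster shared by RHOXF2 and RHOXF2B read 12.95, 12.96 and 12.85 (log2 RMA level) on the RHOXF2 arrays at 48 h, against 6.47, 6.44 and 6.95 on the control arrays. RHOXF1 read 12.29, 12.27 and 12.25 on the RHOXF1 arrays at 48 h, against 5.67, 6.20 and 6.51 on the control arrays. On the RHOXF2 arrays at 48 h the RHOXF1 cluster read 7.75, 7.03 and 9.12, and it was called against control (1.84, limma adjusted p = 0.0462). At 24 h it read 6.94, 7.61 and 7.89 on the RHOXF2 arrays, against 6.13, 6.32 and 6.56 on the control arrays (1.14, adjusted p = 0.449). The groups did not overlap at either time, and the cause was not tested. The third RHOXF2 array at 48 h also stood apart on the first principal component of all named clusters, at -4.5. The other 48 h arrays lay between 9.4 and 26.3 and the 24 h arrays between -17.2 and -8.7. Differences, medians and counts of calls that use that array and moved by over 1.5 times without it are therefore also given without it. All 6 HEK293 markers examined were measured, with the neurofilament genes NEFM and NEFL above 12.5 on every array. The other HEK293 markers had mean levels of 9.84 (LIN28B), 8.19 (INA), 7.47 (LHX1) and 6.55 (PAX2). LHX1 and PAX2 lay below COL1A1 (7.89) and AMH (7.92), the brightest of the markers of other cells. In the comparisons with control, 0 of the 6 HEK293 markers and 0 of 17 clusters for markers of other cells passed the test. Of all named clusters only 0.00471% to 0.0943% passed there, so these counts do not show that the markers were stable. In RHOXF2 cells at 48 h 3 HEK293 markers lay above and 3 below control, the highest by 0.79. Of the 6, 1 had an unadjusted p under 0.05, against 12.2% of all clusters. INA differed by 0.72 without the third RHOXF2 array (limma adjusted p = 0.793).

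DNAJB1, the heat-inducible class B co-chaperone of cytosol and nucleus, was the one member that differed from control in a transfected group after adjustment. Its level was 10.34, 10.75 and 10.06 on the 3 RHOXF2 arrays at 48 h, against 8.95, 8.58 and 8.90 on the control arrays. The lowest RHOXF2 array lay more than 1 log2 unit above the highest control array. The means were 10.38 ± 0.35 in RHOXF2 cells and 8.81 ± 0.20 in control cells (SD, n = 3 each), a log2 difference of 1.57 ± 0.22 (SE) or 2.98-fold, with an adjusted p of 0.00153 in limma. It was the only member of 44 called in this comparison, in which 0.0943% of all named clusters were called. At an unadjusted p under 0.05 there were 6 members, against 12.2% of all clusters. Without the third RHOXF2 array the DNAJB1 difference was 1.73, with a limma adjusted p of 0.00202, and 3 members had an unadjusted p under 0.05, against 4.98% of all clusters.

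In RHOXF1 cells at 48 h DNAJB1 read 9.87, 10.20 and 9.71, against the same 8.95, 8.58 and 8.90 in control cells, and again the groups did not overlap. The difference was 1.12 ± 0.22 (2.17-fold, 95% interval 0.66 to 1.57). Its unadjusted p was 6.54e-05 and its limma adjusted p 0.278, so it was not called. The comparison called 0 of 44 members, against 0.00943% of all named clusters, and 3 members had an unadjusted p under 0.05, against 7.22% of all clusters. With the replicate number as a block the adjusted p of this difference was 0.0175, although same-numbered arrays did not deviate together at 48 h.

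At 24 h DNAJB1 read 9.47, 10.18 and 10.16 in RHOXF2 cells and 9.46, 10.26 and 9.94 in RHOXF1 cells, against 8.96, 9.32 and 9.45 in control cells. In each transfected group the first array was the low one, and it lay only just above the highest control array. The first control array was also the lowest of the control arrays. Replicate numbers were taken to pair the arrays of these 24 h comparisons, and the 24 h differences from control given here come from the fit without this pairing. With the replicate number as a block 0 members were called for RHOXF2 and 0 for RHOXF1. The RHOXF2 difference was 0.69 ± 0.22 (1.62-fold, 95% interval 0.24 to 1.15, limma adjusted p = 0.449). The RHOXF1 difference was 0.64 ± 0.22 (1.56-fold, 95% interval 0.18 to 1.10, limma adjusted p = 0.961). Neither passed. Both comparisons called 0 of 44 members in limma, against 0.00943% of all named clusters for RHOXF2 and 0.00471% for RHOXF1, and 3 members had an unadjusted p under 0.05 for RHOXF2 (7.99% of all clusters) and 1 for RHOXF1 (4.76% of all clusters). Ordered by their difference from control, DNAJB1 stood at place 7 of 21214 clusters for RHOXF2 and 3 for RHOXF1 at 48 h, and at 8 and 2 at 24 h. Ordered by the limma p, it stood at place 12 for RHOXF2 and 5 for RHOXF1 at 48 h, and at 236 and 150 at 24 h. The RHOXF2 and RHOXF1 comparisons of a time share their control arrays, so these places are not independent.

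**Figure D1:**
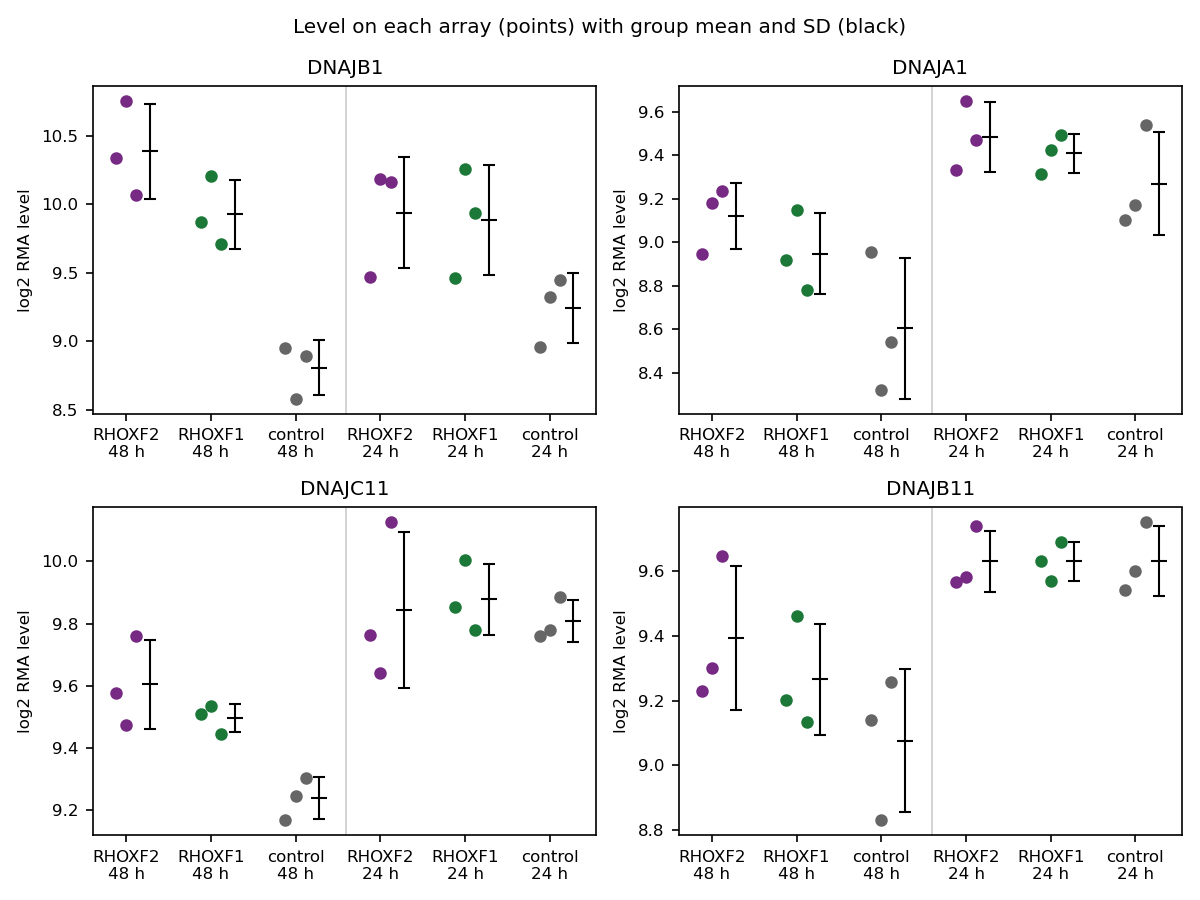
Log2 RMA level (vertical axis) of DNAJB1, DNAJA1, DNAJC11 and DNAJB11 on each of the 18 arrays, by group, with 48 h left of the grey line and 24 h right of it; coloured points are arrays (in replicate order) and the black mark and bar give the group mean and SD. The DNAJB1 points of RHOXF2 and RHOXF1 cells lie above those of control cells at both times, whereas the DNAJA1 groups overlap.

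DNAJB1 was not called between RHOXF2 and RHOXF1 cells. At 48 h RHOXF2 minus RHOXF1 was 0.46 (95% interval 0.00 to 0.91, limma adjusted p = 0.998), and at 24 h it was 0.05 (95% interval -0.40 to 0.51). RHOXF2 arrays ran from 10.06 to 10.75 and RHOXF1 arrays from 9.71 to 10.20 at 48 h, so the groups overlapped. The intervals allow a difference of up to 0.91 at 48 h. These comparisons called 0 of 44 members each, against 0.0519% of all clusters called at 48 h and 0.0141% at 24 h. Under an unadjusted p of 0.05 there were 2 members at 48 h, against 3.52% of all clusters (1 without the third RHOXF2 array, against 2.33%), and 0 at 24 h, against 1.70%.

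The gap between RHOXF2 and control cells was wider at 48 h than at 24 h by 0.88 ± 0.31 for DNAJB1. The unadjusted p of this difference of differences was 0.0103 and the limma adjusted p 0.539, so it was not called. The corresponding value for RHOXF1 was 0.48 (adjusted p = 0.950). Between the times DNAJB1 differed by 0.45 in RHOXF2 cells (adjusted p = 0.316), by 0.04 in RHOXF1 cells (adjusted p = 0.948) and by -0.43 in control cells (adjusted p = 0.171). The control arrays read 8.95, 8.58 and 8.90 at 48 h, against 8.96, 9.32 and 9.45 at 24 h, with the highest 48 h array just under the lowest 24 h array. DNAJB1 was also among the more variable clusters within groups, with a residual SD at the 98.5th percentile of all named clusters.

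The promoter of DNAJB1 is shown because it is the promoter of the member that was called, and that of DNAJA1 because it held the longer heat shock motif. RefSeq windows of GRCh38.p14, from 250 bases before a start to 50 bases after it, were found for 38 of the 42 genes, as 50 windows. DNAJB1 has 3 windows there. The one shown lies at chr19:14518348-14518647 on the minus strand, and capitals mark the letters GAANNTTC, a pair of facing heat shock units, on either strand. The DNAJA1 window lies at chr9:33025023-33025322 on the plus strand, and capitals mark a match to the same letters upstream and, just after the start, 3 units in a row (GAA, TTC and GAA with 2 free bases between each), which contain the shorter motif.
DNAJB1: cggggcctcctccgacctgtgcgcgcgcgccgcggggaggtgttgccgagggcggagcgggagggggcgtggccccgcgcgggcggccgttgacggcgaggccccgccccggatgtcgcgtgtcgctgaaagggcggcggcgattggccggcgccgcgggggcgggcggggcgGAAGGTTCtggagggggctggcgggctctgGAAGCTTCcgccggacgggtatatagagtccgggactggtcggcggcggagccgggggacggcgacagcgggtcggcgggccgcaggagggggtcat
DNAJA1: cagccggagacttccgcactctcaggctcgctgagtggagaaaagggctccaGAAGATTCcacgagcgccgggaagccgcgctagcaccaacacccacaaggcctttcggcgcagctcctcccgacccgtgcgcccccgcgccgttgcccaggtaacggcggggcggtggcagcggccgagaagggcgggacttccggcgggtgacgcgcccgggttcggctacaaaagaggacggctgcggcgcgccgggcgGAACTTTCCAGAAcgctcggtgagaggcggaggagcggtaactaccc
In the DNAJB1 window the motif occurred at 77 to 70 and at 47 to 40 bases before the start, just upstream of the letters tatata. Of its other windows, 1 held 1 match and 1 held 0. In DNAJA1 the longer motif covered bases 4 to 16 counted from the start, and the separate shorter match lay at 198 to 191 bases before it. Over all 35116 windows the shorter motif occurred in 6.77% and the 3-unit motif, searched as GAA, TTC, GAA and as TTC, GAA, TTC, in 0.490%. Among the 50 member windows the shorter motif was in 7 (14.0%), those of DNAJA1, DNAJA4, DNAJB6, DNAJB7, DNAJC6 and a pair for DNAJB1, and the longer in 2 (4.0%), those of DNAJA1 and DNAJB6. The ER stress element, CCAAT and CCACG with 9 free bases between them on either strand, occurred in 0.0769% of all windows and in 0 member windows. A match to these letters is a description of the window, and binding was not measured.

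The other heat-inducible members were DNAJA1, DNAJB4 and DNAJA4. With DNAJB1, all 4 clusters stood above control in RHOXF2 cells at 48 h, with a median difference of 0.32, against 0.01 over all named clusters, and 1 was called. Of all named clusters 53.9% lay above control there and 0.0943% were called. In RHOXF1 cells at 48 h 3 were above and 1 below, with a median of 0.20. DNAJA1, a cytosolic class A partner of HSC70, read 8.95, 9.18 and 9.23 in RHOXF2 cells at 48 h and 8.92, 9.15 and 8.78 in RHOXF1 cells, against 8.96, 8.32 and 8.54 in control cells. The first control array lay within the range of the transfected arrays. The RHOXF2 difference was 0.52 ± 0.15 (1.43-fold, limma adjusted p = 0.216) and the RHOXF1 difference 0.34 ± 0.15 (adjusted p = 0.665), and neither passed. Without that control array the RHOXF2 difference was 0.69 with an adjusted p of 0.0381, and without the third RHOXF2 array it was 0.46 with an adjusted p of 0.899.

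DNAJB4, a class B protein close to DNAJB1, read 8.67, 8.77 and 8.45 in RHOXF2 cells at 48 h, against 8.47, 8.49 and 8.57 in control cells, a difference of 0.12 (adjusted p = 0.742), or 0.21 without the third RHOXF2 array (adjusted p = 0.991). At 24 h its RHOXF2 arrays read 8.57, 8.76 and 8.75, against 8.21, 8.53 and 8.73 in control cells, a difference of 0.20 (adjusted p = 0.724). The groups overlapped at both times. DNAJA4, a class A protein induced by heat, was dim throughout, with a mean level at the 20.0th percentile of named clusters. It read 5.27, 5.38 and 5.03 in RHOXF2 cells at 24 h and 5.26, 5.44 and 5.19 in RHOXF1 cells, against 5.54, 5.56 and 5.40 in control cells. Its RHOXF2 arrays all lay below the control arrays, by -0.27 ± 0.11 (adjusted p = 0.544), and at 48 h the difference was 0.05.

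**Figure D2:**
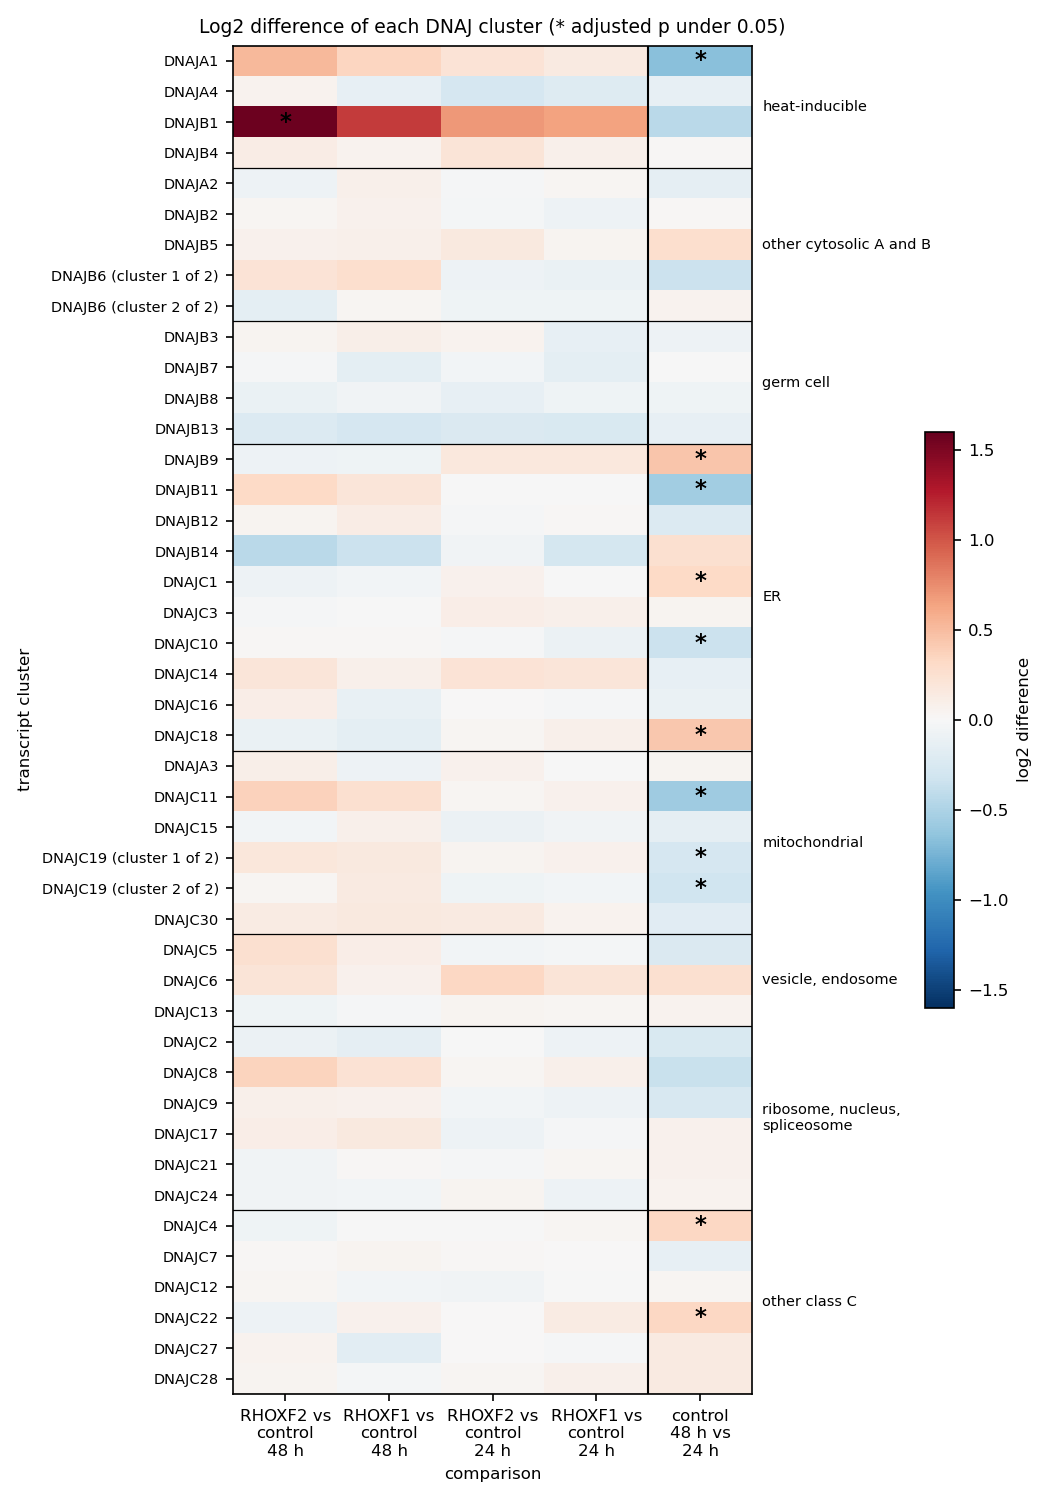
Log2 difference (colour) of each of the 44 DNAJ clusters (rows, grouped by role) in the comparisons with control at 48 h and 24 h and in control cells between the times (columns); an asterisk marks a limma adjusted p under 0.05. In the columns against control the one asterisk is DNAJB1 in RHOXF2 cells at 48 h, and 11 asterisks stand in the column of control cells at 48 h against 24 h.

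The remaining cytosolic and nuclear class A and B members, DNAJA2, DNAJB2, DNAJB5 and DNAJB6, gave 5 clusters, and 0 passed limma's test against control, with 0 under an unadjusted p of 0.05. Of all named clusters 0.00471% to 0.0943% passed in these comparisons, and 4.76% to 12.2% had an unadjusted p under 0.05. Their differences at 48 h ran from -0.16 to 0.22 in RHOXF2 cells and from 0.03 to 0.27 in RHOXF1 cells. Both of these limits for RHOXF2 came from DNAJB6, a class B protein that holds back protein aggregation, whose clusters differed in sign at 0.22 and -0.16 (0.26 and -0.06 without the third RHOXF2 array). The RHOXF2 arrays of the lower cluster read 10.44, 9.83 and 9.85 and the control arrays 9.66, 10.41 and 10.52, a within-group spread at the 99.0th percentile of named clusters. DNAJB5 read 7.69, 7.70 and 7.54 in RHOXF2 cells at 24 h, against 7.50, 7.51 and 7.44 in control cells, groups that did not overlap, with a difference of 0.16 (adjusted p = 0.726).

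The germ cell members DNAJB3, DNAJB7, DNAJB8 and DNAJB13 are best known from testis, and DNAJB13 from the radial spokes of sperm tails and cilia. All 4 were dim, with mean levels of 4.47 to 5.38, at percentiles 10.1 to 20.4 of named clusters. In the comparisons with control 0 passed, against 0.00471% to 0.0943% of all named clusters. DNAJB13 read 5.22, 4.99 and 5.25 in RHOXF2 cells at 48 h and 4.77, 5.17 and 5.35 in RHOXF1 cells, against 5.17, 5.48 and 5.45 in control cells. At 24 h it read 5.25, 5.33 and 5.21 in RHOXF2 cells and 5.20, 5.28 and 5.30 in RHOXF1 cells, against 5.44, 5.77 and 5.30 in control cells. The groups overlapped each time, and the differences at 48 h were -0.21 for RHOXF2 and -0.27 for RHOXF1, and at 24 h they were -0.24 for each, with adjusted p from 0.549 to 0.961. DNAJB8, which counters polyglutamine aggregation, read 5.30, 5.28 and 5.33 in RHOXF2 cells at 48 h, all below 5.43, 5.39 and 5.39 in control cells, with a difference of -0.10 (adjusted p = 0.644). At 24 h its RHOXF2 arrays read 5.27, 5.38 and 5.38, against 5.62, 5.43 and 5.36 in control cells (difference -0.13, adjusted p = 0.739).

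The 10 members of the endoplasmic reticulum split evenly in RHOXF2 cells at 48 h, with 5 above and 5 below control and a median of 0.00. Of these 0 were called, against 0.0943% of all named clusters. With the third RHOXF2 array left out, 3 were above and 7 below, with a median of -0.04 and 0 called, against 0.0707%. DNAJB11, a soluble partner of the lumenal HSP70 BiP, read 9.23, 9.30 and 9.65 in RHOXF2 cells, against 9.14, 8.83 and 9.26 in control cells, a difference of 0.32 ± 0.12 (adjusted p = 0.305) with overlapping groups. Without the third RHOXF2 array, the highest of them, it was 0.19 (adjusted p = 0.991). DNAJB14, a membrane-bound class B protein, went the other way. It read 8.14, 8.31 and 7.59 in RHOXF2 cells and 8.15, 8.11 and 8.03 in RHOXF1 cells, against 8.08, 8.57 and 8.66 in control cells. The differences were -0.43 ± 0.18 (adjusted p = 0.350) and -0.34 ± 0.18 (adjusted p = 0.729), and the array that stood apart was the lowest of the RHOXF2 values. Without it the RHOXF2 difference of DNAJB14 was -0.21 (adjusted p = 0.997). DNAJB14 read 7.73, 8.16 and 7.79 in RHOXF1 cells at 24 h, against 7.91, 8.47 and 8.16 in control cells (-0.28, adjusted p = 0.961).

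DNAJC14, a membrane protein that regulates the export of receptors from the endoplasmic reticulum, read 9.27, 9.19 and 9.04 in RHOXF1 cells at 24 h, against 9.11, 8.68 and 9.11 in control cells (0.20, adjusted p = 0.961). DNAJC16 read 8.90, 8.82 and 8.78 in RHOXF1 cells at 48 h, all below 9.01, 8.91 and 8.93 in control cells, by -0.12 (adjusted p = 0.787). Against those RHOXF1 arrays, RHOXF2 arrays at 48 h read 9.00, 8.97 and 9.21, a difference of 0.23 without overlap (unadjusted p = 0.0114, limma adjusted p = 0.998), or 0.15 without the third RHOXF2 array (unadjusted p = 0.0821, limma adjusted p = 1.00). DNAJB9, DNAJC3 and DNAJC10, other partners of BiP, lay between -0.08 and 0.02 in RHOXF2 cells at 48 h, and between -0.11 and -0.05 without that array.

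The mitochondrial list gave 6 clusters, of which 5 stood above control at 48 h for RHOXF2 (median 0.11) and 5 for RHOXF1 (median 0.15). In limma 0 were called, with 1 under an unadjusted p of 0.05 each time. Of all clusters 12.2% for RHOXF2 and 7.22% for RHOXF1 had an unadjusted p under 0.05, and 0.0943% and 0.00943% were called. With the third RHOXF2 array left out, 5 of the 6 were still above control for RHOXF2, with a median of 0.02. The one under an unadjusted p of 0.05 was DNAJC11, a protein of the outer membrane that associates with the complex shaping the cristae. It read 9.58, 9.47 and 9.76 in RHOXF2 cells and 9.51, 9.53 and 9.45 in RHOXF1 cells, against 9.17, 9.24 and 9.30 in control cells. Every transfected array lay above every control array. The differences were 0.37 ± 0.11 (1.29-fold, adjusted p = 0.220) and 0.26 ± 0.11 (1.20-fold, adjusted p = 0.654). Without the third RHOXF2 array the RHOXF2 difference was 0.29 (adjusted p = 0.899). At 24 h the differences were 0.03 for RHOXF2 and 0.07 for RHOXF1. Both clusters of DNAJC19, a part of the import motor of the inner membrane, had RHOXF1 arrays above the control arrays at 48 h, with differences of 0.16 and 0.15.

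Members at vesicles and endosomes were DNAJC5, DNAJC6 and DNAJC13, and 0 were called against control. Of all named clusters 0.00471% to 0.0943% were called in those comparisons. DNAJC5, the cysteine string protein of secretory vesicles, read 8.65, 8.76 and 8.96 in RHOXF2 cells at 48 h, against 8.70, 8.44 and 8.47 in control cells, a difference of 0.26 ± 0.09 (unadjusted p = 0.00975, limma adjusted p = 0.270) with overlap of 1 array on each side. When the third RHOXF2 array, the highest of them, was left out it was 0.17 (unadjusted p = 0.0766, limma adjusted p = 0.988). DNAJC6, auxilin, which uncoats clathrin vesicles mainly in neurons, read 8.01, 7.80 and 8.07 in RHOXF2 cells at 24 h and 7.96, 7.68 and 7.89 in RHOXF1 cells, against 7.79, 7.41 and 7.70 in control cells. Its RHOXF2 arrays did not overlap the control arrays, at a difference of 0.33 ± 0.12 (adjusted p = 0.505), and the RHOXF1 difference was 0.21 ± 0.12 (adjusted p = 0.961).

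The 6 members listed here under the ribosome, the nucleus or the spliceosome ran from -0.10 to 0.35 in RHOXF2 cells at 48 h. They were DNAJC2, DNAJC8, DNAJC9, DNAJC17, DNAJC21 and DNAJC24. The highest was DNAJC8, a spliceosome-associated protein, with 9.99, 9.81 and 10.08 in RHOXF2 cells, against 9.92, 9.36 and 9.54 in control cells (unadjusted p = 0.0519, limma adjusted p = 0.416). The other 6 class C members, DNAJC4, DNAJC7, DNAJC12, DNAJC22, DNAJC27 and DNAJC28, lay between -0.08 and 0.06 in that comparison. Of these 0 had an unadjusted p under 0.05, against 12.2% of all clusters.

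Over the whole family 27 clusters lay above and 17 below control in RHOXF2 cells at 48 h, and the median difference of 0.04 compares with 0.01 over all named clusters. The share above control was 61.4%, against 53.9% of all named clusters. Without the third RHOXF2 array the counts were 25 and 19, with a family median of 0.02. For RHOXF1 at 48 h the counts were 26 and 18 (59.1% above, against 52.6% of all clusters), with medians of 0.05 and 0.01. At 24 h they were 23 and 21 for RHOXF2 (52.3% above, against 48.8%) and 21 and 23 for RHOXF1 (47.7%, against 50.1%). Members whose RHOXF2 arrays all lay above control at 48 h were DNAJB1, DNAJC11 and the first DNAJC19 cluster, 6.82% of the 44, against 6.59% of all named clusters, and 1 (DNAJB8) lay wholly below, 2.27% against 5.24%. For RHOXF1 at 48 h there were 4 wholly above (DNAJB1, DNAJC11 and both DNAJC19 clusters), 9.09% against 7.17%, and 1 below (DNAJC16), 2.27% against 5.39%. For RHOXF2 at 24 h 4 were wholly above (DNAJB1, DNAJB5, DNAJC6 and DNAJC30), 9.09% against 3.89%, and 1 below (DNAJA4), 2.27% against 7.18%. For RHOXF1 at 24 h DNAJB1 alone was wholly above, 2.27% against 4.60%, and 0 were below, against 4.93%.

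**Figure D3:**
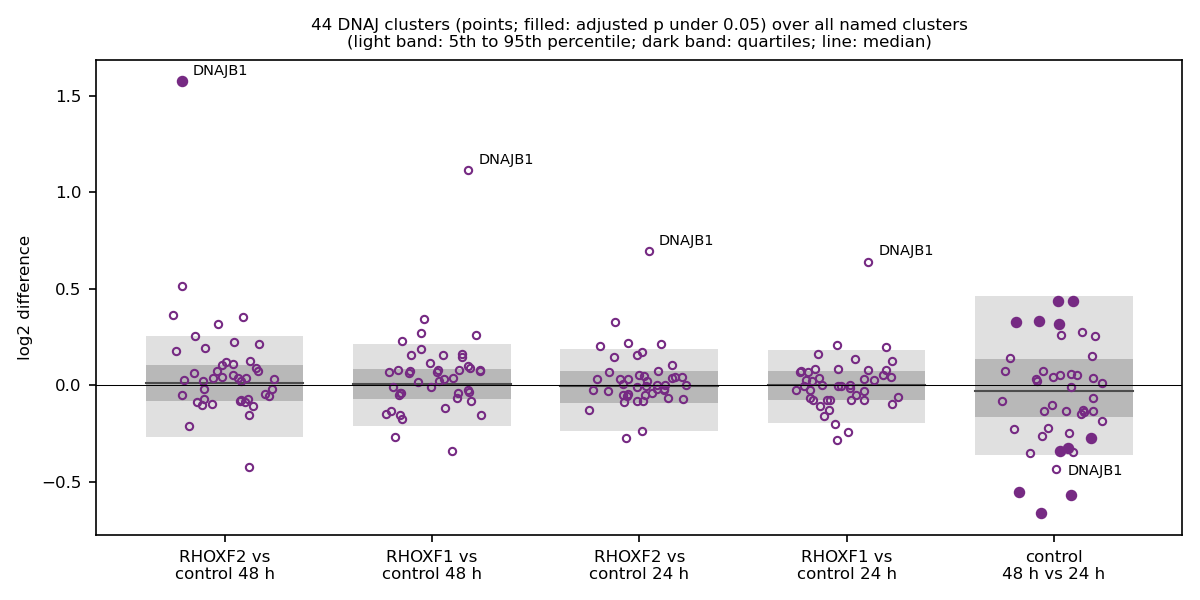
Log2 difference (vertical axis) of the 44 DNAJ clusters (points, filled where the limma adjusted p was under 0.05) in the 4 comparisons with control and in control cells at 48 h against 24 h; grey bands give the 5th to 95th percentile and the quartiles of all 21214 named clusters, and the line their median. DNAJB1 lies outside the wide band in every comparison with control, and most other members lie within it.

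Most calls in the family fell between the times in control cells, where 11 of 44 clusters (25.0%) were called, against 17.8% of all named clusters. The count rested on single arrays: it was 5 without control 24 h replicate 2, 6 without control 24 h replicate 3, 5 without control 48 h replicate 2 and 4 without control 48 h replicate 3. It was also 4 when only the control arrays were fitted. DNAJA1, DNAJC11 and DNAJB11 were called in all 14 alternatives run, and the other 8 clusters each lost the call in at least 1. Of the 11, 5 were higher (11.4%, against 9.89% of all clusters) and 6 lower at 48 h (13.6%, against 7.89%). Arrays of the 2 times carry separate runs of array numbers in the labels, so time after transfection and array number cannot be told apart. Of the 6 HEK293 markers, 2 were called in control cells between the times, both higher at 48 h. Among 17 clusters of markers of other cells, 1, the monocyte marker CD14, was called in the same comparison, at a log2 difference of -0.46, and it was dim at 5.42 to 6.12 on all arrays.

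DNAJA1 fell in control cells, to 8.96, 8.32 and 8.54 at 48 h, against 9.10, 9.17 and 9.54 at 24 h, by 0.66 ± 0.15 on the log2 scale (limma adjusted p = 0.00572). DNAJC11 fell to 9.17, 9.24 and 9.30 at 48 h, against 9.76, 9.78 and 9.89 at 24 h, by 0.57 ± 0.11 (adjusted p = 0.00213). DNAJB11 fell to 9.14, 8.83 and 9.26 at 48 h, against 9.54, 9.60 and 9.75 at 24 h, by 0.55 ± 0.12 (adjusted p = 0.00502). In each of these the times did not overlap.

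The other 3 lower clusters were smaller in size. DNAJC10, a disulfide reductase of the endoplasmic reticulum, read 10.11, 9.79 and 10.14 at 48 h, against 10.13, 10.46 and 10.46 at 24 h (-0.34, limma adjusted p = 0.0318), with 1 array of each time in overlap. The DNAJC19 clusters read 9.64, 9.60 and 9.50 at 48 h, against 9.65, 9.80 and 10.10 at 24 h (-0.27, adjusted p = 0.0495), and 8.35, 8.24 and 8.24 at 48 h, against 8.37, 8.64 and 8.79 at 24 h (-0.32, adjusted p = 0.0253). In both clusters the first 24 h array lay just above the highest 48 h array.

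DNAJC18, a membrane protein of the endoplasmic reticulum, rose to 8.87, 9.08 and 9.19 at 48 h, against 8.65, 8.56 and 8.62 at 24 h (0.44, limma adjusted p = 0.0111). DNAJB9, a BiP co-chaperone of the unfolded protein response that represses the sensor IRE1, read 7.23, 7.36 and 7.58 at 48 h, against 6.78, 6.95 and 7.13 at 24 h (0.44, adjusted p = 0.0328). DNAJC1, a membrane-bound J protein of the endoplasmic reticulum, read 9.55, 9.46 and 9.73 at 48 h, against 9.23, 9.29 and 9.26 at 24 h (0.32, adjusted p = 0.0103). All 3 were higher on every 48 h array than on every 24 h array. DNAJC22 read 6.49, 6.45 and 6.55 at 48 h, against 6.29, 6.04 and 6.16 at 24 h (0.33, adjusted p = 0.0291). DNAJC4 read 7.86, 7.90 and 7.77 at 48 h, against 7.65, 7.53 and 7.38 at 24 h (0.33, adjusted p = 0.0383). By role list, the called clusters were 1 of 4 heat-inducible members and 5 of 10 of the endoplasmic reticulum (3 higher, 2 lower). The mitochondrial list had 3 of 6 (all lower) and the list of other class C members 2 of 6 (both higher, DNAJC4 and DNAJC22). Each member was put on 1 list only, so these counts depend on how the lists were drawn up. Of all named clusters 9.89% were called higher and 7.89% lower. The calls on the mitochondrial list were DNAJC11 and the pair of clusters of DNAJC19, which lost the call in 7 and 5 of 14 alternatives.

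In the transfected cells fewer members were called between the times, against lower shares of all clusters called. RHOXF2 cells had 0 of 44 in limma, against 1.24% of all named clusters (0 against 3.78% without the third 48 h array), with 9 under an unadjusted p of 0.05, against 16.7% of all clusters. RHOXF1 cells had 2 (4.55%), against 4.42%, which were DNAJC1 and DNAJC11. Both calls were lost when any single RHOXF1 array was left out, which gave 0 called each time. DNAJC1 read 9.56, 9.48 and 9.58 at 48 h in RHOXF1 cells, against 9.29, 9.24 and 9.25 at 24 h (0.28, adjusted p = 0.0481). DNAJC11 read 9.51, 9.53 and 9.45 at 48 h in RHOXF1 cells, against 9.85, 10.00 and 9.78 at 24 h (-0.38, adjusted p = 0.0488). For all 11 clusters called in control cells, the change between the times had the same sign in RHOXF2, RHOXF1 and control cells and was smaller in size in RHOXF2 and RHOXF1 cells. With the third RHOXF2 array at 48 h left out, it was smaller in RHOXF2 cells for 10 of the 11, with DNAJC10 the exception at -0.37 in RHOXF2 cells and -0.34 in control cells. The clusters were chosen by their control values, so this is a description and no test. DNAJA1 gave -0.36 in RHOXF2 cells, -0.46 in RHOXF1 cells and -0.66 in control cells. None of the 44 differed in its change over time between transfected and control cells by limma, against 0.0141% of all clusters for RHOXF2 and 0 for RHOXF1. At an unadjusted p under 0.05 there were 4 for RHOXF2 (DNAJB1, DNAJC5, DNAJC11 and DNAJA4, all with a more positive difference from control at 48 h), against 8.75% of all clusters, and 0 for RHOXF1, against 4.70%. Without the third RHOXF2 array at 48 h the 4 became 1 (DNAJB1), against 5.80% of all clusters.

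**Figure D4:**
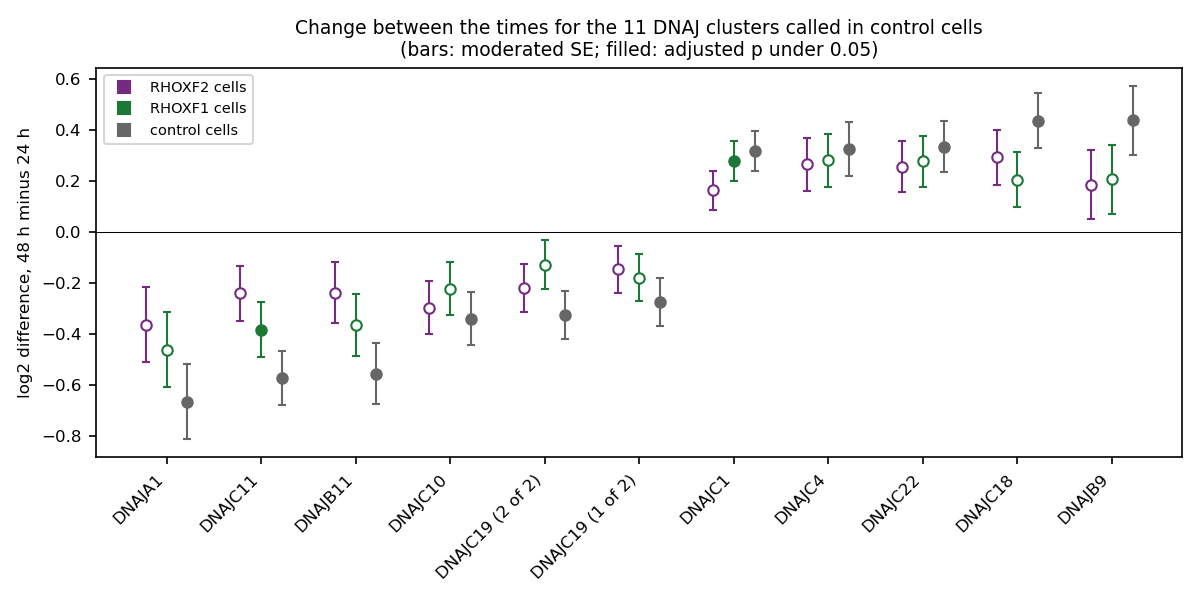
Log2 difference at 48 h minus 24 h (vertical axis) of the 11 DNAJ clusters called in control cells, in RHOXF2, RHOXF1 and control cells; bars are the moderated SE and filled points have a limma adjusted p under 0.05. The control points lie farthest from 0 in each cluster, at -0.66 for DNAJA1 and 0.44 for DNAJB9, and of the other points only DNAJC11 and DNAJC1 in RHOXF1 cells are filled.

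J domains act on HSP70, so the partner genes are given beside the family. Of 31 clusters for HSP70 proteins, their nucleotide exchange factors and adaptors, 28 lay above control in RHOXF2 cells at 48 h (25 of 28 when clusters with identical values on all arrays, 3 for HSPA1L and 2 for HSPA1A and HSPA1B, are counted once), with a median of 0.33, and 8 were called, all higher. Those were the stress-inducible HSPA6 (1.98 ± 0.30, limma adjusted p = 0.00359), the exchange factors HSPH1 (1.12 ± 0.15, adjusted p = 0.00150) and BAG3 (0.57 ± 0.11, adjusted p = 0.0489), and 5 clusters shared by HSPA1A and HSPA1B (0.68 to 0.94). Of all named clusters 53.9% lay above control and 0.0943% were called in this comparison. Counts of calls and of unadjusted p in this paragraph take each cluster separately, with 5 for HSPA1A and HSPA1B and 3 for HSPA1L. They are therefore not counts of genes. With the third RHOXF2 array left out, 27 of the 31 lay above control, with a median of 0.22, and 7 were called, with BAG3 no longer among them (0.48, adjusted p = 0.433). In RHOXF1 cells at 48 h 27 of the 31 lay above control, with a median of 0.14 and 0 called in limma. Of all named clusters 52.6% lay above control there and 0.00943% were called. Of the 31, 5 had an unadjusted p under 0.05, against 7.22% of all clusters. At 24 h the medians were 0.09 for RHOXF2 and 0.07 for RHOXF1, with 0 called in each, against 0.00943% and 0.00471% of all named clusters. Under an unadjusted p of 0.05 there were 10 for RHOXF2, against 7.99% of all clusters, and 1 for RHOXF1, against 4.76%. HSPA6 differed from control by 0.43 and HSPH1 by 0.35 in RHOXF1 cells at 48 h, where DNAJB1 differed by 1.12. In RHOXF2 cells at 48 h minus RHOXF1 cells the 5 HSPA1A and HSPA1B clusters were called (0.58 to 0.79, adjusted p = 0.0114), whereas DNAJB1 was not. The share of all named clusters called there was 0.0519%. HSPA6 gave 1.55 there (adjusted p = 0.0937), and without the third RHOXF2 array it was also called, at 2.05 (adjusted p = 0.000119), so that 6 were. In control cells 14 of the 31 clusters were called lower at 48 h than at 24 h and 0 higher, HSPH1 among them at -1.22. Of all named clusters 7.89% were called lower and 9.89% higher in that comparison. RHOXF1 cells had 7 of the 31 called lower between the times and 0 higher, against 4.42% of all named clusters called. RHOXF2 cells with all arrays had 0 called, against 1.24%.

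Of 13 clusters for HSP90, small heat shock proteins, chaperonins and HSF1, 11 lay above control in RHOXF2 cells at 48 h, with a median of 0.19 and 0 called in limma. Of all named clusters 53.9% lay above control there and 0.0943% were called. Of the 13, 4 had an unadjusted p under 0.05, against 12.2% of all clusters. Without the third RHOXF2 array 10 of the 13 lay above, with a median of 0.11 and 0 called, against 0.0707% of all named clusters. The J-domain genes outside the rule (SEC63, GAK, HSCB, DNAJC5B and DNAJC5G), with 5 clusters found, ran from -0.13 to 0.16 in that comparison with all arrays. DNAJA1P5, the DNAJA1 pseudogene left out by the rule, differed by 0.06.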

How the data were processed

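The values were the log2 RMA levels that the authors deposited for 18 arrays, made with Affymetrix Expression Console 3.1 per the labels; RMA corrects background, quantile-normalizes and summarises probes per transcript cluster. The labels name a Human Gene ST array and the series text an exon array. The genome build and annotation version are not given in the sources used here. Array medians ran from 6.68 to 6.82 and replicates correlated at 0.990 to 0.996. The number of arrays, 3 a group, limits the precision.

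Symbols came from the platform annotation, with 1 symbol for 19460 clusters, several for 1754 and none for 12083. Group means of all 18 arrays were fitted with limma 3.58.1 in R 4.3.3 (12 residual degrees of freedom), two-sided, with Benjamini-Hochberg adjustment over the 21214 named clusters, and a cluster was called at an adjusted p under 0.05. No cluster was filtered out, so all 44 members were tested. The fit was checked on simulated data. Values on every array are given for members called anywhere and for the 3 with the smallest p in each direction in each comparison with control. The members and the role, partner and marker lists were chosen with earlier results of these data known. The 2-unit heat shock motif was added after the 3-unit motif had been counted, and the members and partner lists without the RHOXF2 array that stood apart were added after the data were seen. Alternatives were another normalization, array weights, a filter on dim clusters, clusters with 1 symbol, a trended robust prior, separate fits, a replicate block and each array left out.

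Replicate numbers were checked for pairing by correlating the residuals of same-numbered arrays. All 3 pairs exceeded 0.1 for RHOXF2 against control and for RHOXF1 against control at 24 h, where the numbers were taken to pair the arrays, and not in the other comparisons.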

Additional observations from a re-analysis of the deposited data

How the results depend on the processing

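DNAJB1 in RHOXF2 against control cells at 48 h was called in all 14 alternatives, at 1.39 to 1.73 (log2) with limma adjusted p from 0.000151 to 0.0238. The number of members called there was 1 to 2 with single arrays left out, and the second, without control 48 h replicate 1, was DNAJA1. With the replicate number as a block, RHOXF1 against control at 48 h called 1 member (DNAJB1, adjusted p = 0.0175), where the numbers do not pair the arrays. At 24 h, where they do, the block left 0 members called for RHOXF2 and 0 for RHOXF1. Between the times in control cells the count of 11 became 4 when only those arrays were fitted and 4 to 12 with single arrays left out; it was 5 without control 24 h replicate 2, 6 without control 24 h replicate 3, 5 without control 48 h replicate 2 and 4 without control 48 h replicate 3. DNAJA1, DNAJC11 and DNAJB11 were called in all 14 alternatives, and the other 8 clusters failed in 1 to 8 of them, DNAJC18 in 1 and DNAJC4 in 8. In RHOXF1 cells between the times the count of 2 became 6 with array weights, 5 when only those arrays were fitted, 1 with repeated quantile normalization, 1 with the replicate block and 0 with any single array left out. The DNAJB1 change between the times in RHOXF1 cells, 0.04, was -0.047 with array weights and -0.17 to 0.23 with single arrays left out, negative without RHOXF1 24 h replicate 1 (-0.17) or RHOXF1 48 h replicate 2 (-0.10). DNAJB1 in RHOXF2 against RHOXF1 cells at 24 h, 0.05, was -0.015 with array weights and -0.16 to 0.29 with single arrays left out, negative without RHOXF1 24 h replicate 1 (-0.16), RHOXF2 24 h replicate 2 (-0.07) or RHOXF2 24 h replicate 3 (-0.06). The family median in control cells between the times, -0.07, was -0.0023 with cyclic loess and -0.02 with repeated quantile normalization. The cause of these moves was not tested. Dim members, such as DNAJA4 and the germ cell members, are limited by signal over background.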
